A study of Saccharomyces cerevisiae with 6 samples.

Results

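The 9 genes described here make the enzymes that yeast uses against methylglyoxal and related reactive aldehydes. They were chosen by locus tag and all 9 were found among the 5793 features of the deposited table. RNA-Seq was carried out on *Saccharomyces cerevisiae* strain BJ5464, which the labels give as auxotrophic through loss of URA3 and which both groups share. Cells were grown in rich medium with dextrose at 28 °C to an OD600 of 0.75, and the culture was then divided. The heat shock group (3 libraries) spent 20 min at 37 °C, and the optimal growth group (3 libraries) was not heated. Each group's 3 libraries came from 2 mL aliquots of one part of one culture and were made from polyadenylated RNA with a stranded kit.

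The value used for each gene was the authors' log2 mean CPM, log2 of the read count scaled to a common library size (CPM), averaged over all libraries of both conditions. It is 1 number per gene, with no value per library, so no standard deviation can be given and read depth is unknown. The table's other columns hold the authors' own contrast of heat shock with optimal growth. They were not used, and no difference between the conditions is reported. Each level below therefore mixes cells at 28 °C with cells at 37 °C, and whether neighbouring levels differ beyond the spread between libraries could not be judged.

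Methylglyoxal is a toxic by-product of glycolysis that forms from triose phosphates and attacks proteins and nucleic acids. Yeast removes it by the glyoxalase pathway, in which glutathione is joined to it and D-lactate is released, and by reductases that use NADPH. Aldo-keto reductases are a family of such reductases with broad and overlapping substrates, sugars and aldehydes among them.

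GLO1 encodes glyoxalase I, which acts on the adduct of methylglyoxal and glutathione. GLO2 and GLO4 encode glyoxalase II of the cytosol and of mitochondria, the hydrolases that complete the pathway. In the genome reference (R64), GLO2 (YDR272W) lies on chromosome IV from 1009010 to 1009834 and GLO4 (YOR040W) on chromosome XV from 407064 to 407921, both on the plus strand. Their proteins were identical at 59.1% of 274 aligned positions. The longest run of bases that their coding sequences share was 24 bases long, against runs of 17 to 18 for the other 7 genes with any coding sequence in the table. It begins at base 169 of GLO2 and base 199 of GLO4 and codes for the histidine-rich, metal-binding motif known from glyoxalase II enzymes. Both stretches are shown on the plus strand because they are the most alike part of the pair, with the shared run in capitals. The GLO2 stretch is chrIV:1009166-1009213 and the GLO4 stretch is chrXV:407250-407297.
GLO2: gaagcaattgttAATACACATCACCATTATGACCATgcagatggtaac
GLO4: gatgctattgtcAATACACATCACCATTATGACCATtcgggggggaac
No 50-base word of either gene occurred elsewhere in the genome, and the same held for all 9 genes.

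GLO1 (YML004C, chromosome XIII, 261705 to 262685, minus strand) had a log2 mean CPM of 7.75, or 214.9 CPM, above 83.0% of the features. GLO2 had a log2 mean CPM of 6.79 (110.4 CPM) and GLO4 one of 5.23 (37.6 CPM). GLO4 was the lowest of the 9 genes. Because a long transcript yields more reads, levels of different genes were compared as CPM per kilobase of coding length, whose median over 5706 protein-coding genes was 59.0. On this scale GLO1 stood at 219.1, GLO2 at 133.8 and GLO4 at 43.9 CPM per kilobase. The RNA level of GLO2 was thus 3.05 times that of GLO4, and GLO1 was 1.64 times GLO2. GLO4 alone among the 9 genes lay below the median of all genes per kilobase, at the 38.9th percentile. Its 3' neighbour on the opposite strand, the small nucleolar RNA gene SNR9, lies 26 bases away.

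HSP31 (YDR533C, chromosome IV, 1501447 to 1502160, minus strand) encodes a chaperone of the DJ-1 family that also removes methylglyoxal without glutathione. Its log2 mean CPM was 6.42 (85.8 CPM), above 54.4% of the features. It has the shortest protein of the 9, with 237 residues, and division by coding length moved it most, to 120.2 CPM per kilobase and the 73.0th percentile. SNO4, a relative near a chromosome end, encodes a protein identical to that of HSP31 at 68.8% of 237 positions. SNO4 had the lowest log2 mean CPM of all 5793 features, -0.55, and 77.4% of its 50-base words occurred elsewhere in the genome, so its separate value is uncertain. HSP32 and HSP33, the remaining relatives, were not found among the 5793 features.

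GRE2 (YOL151W, chromosome XV, 43694 to 44722, plus strand) encodes an NADPH-dependent methylglyoxal reductase that is not an aldo-keto reductase. Its log2 mean CPM was 5.98 (63.1 CPM), above 42.0% of the features. Per kilobase it stood at 61.3 CPM, close to the median of 59.0. Its protein was identical at 56.1% to 59.1% of 342 positions to those of 3 similar reductases, ARI1, YGL039W and YDR541C. Per kilobase, ARI1 stood at 122.1, YGL039W at 59.2 and YDR541C at 37.6 CPM. GRE2 was thus second among these 4 genes, with ARI1 1.99 times as high.

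**Figure D1:**
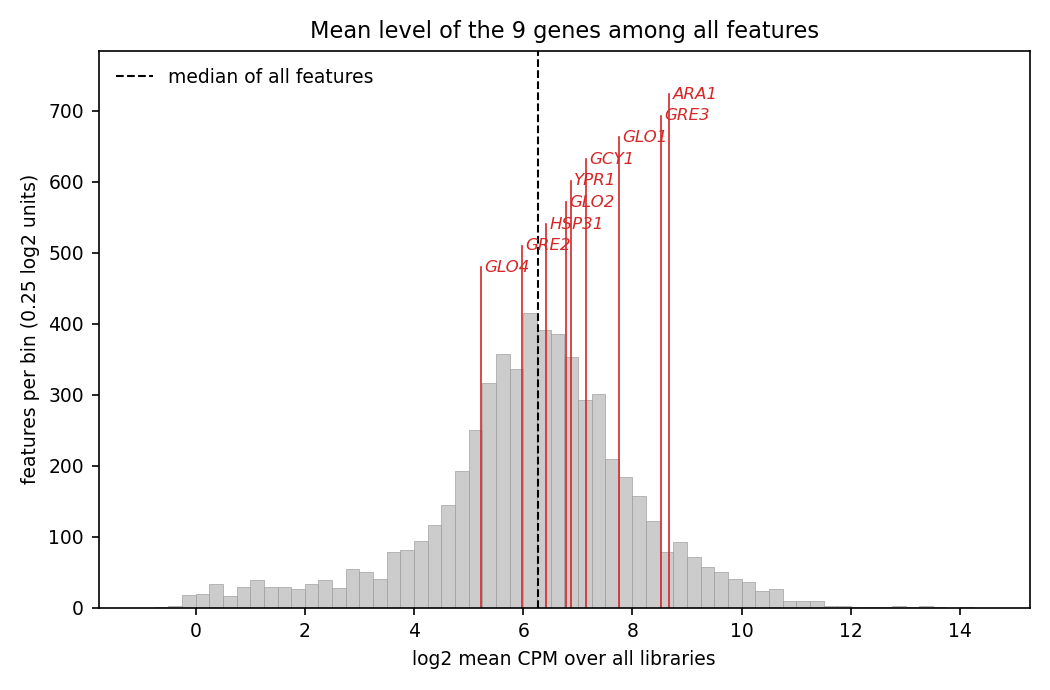
Histogram of the authors' log2 mean CPM over all libraries for 5793 features (grey, x axis in log2 units, y axis in features per bin), with a red line at the value of each of the 9 genes; line heights only separate the names. GLO4 (5.23) and GRE2 (5.98) lie left of the dashed median of 6.26, and GRE3 (8.53) and ARA1 (8.67) lie farthest right.

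Of the aldo-keto reductases, ARA1 and GRE3 held the highest levels of the 9 genes, and GCY1 and YPR1 lay below GLO1. ARA1 (YBR149W, chromosome II, 539987 to 541021, plus strand), which encodes an NADP-dependent arabinose dehydrogenase, had a log2 mean CPM of 8.67 (408.2 CPM), above 91.9% of the features. GRE3 (YHR104W, chromosome VIII, 323409 to 324392, plus strand) encodes the aldose reductase of yeast, which also reduces xylose and methylglyoxal. It had a log2 mean CPM of 8.53 (368.7 CPM), above 91.1% of the features. Per kilobase they stood at 394.4 and 374.7 CPM, a ratio of 1.05. GCY1 (YOR120W, chromosome XV, 551114 to 552052, plus strand) encodes a glycerol dehydrogenase, and YPR1 (YDR368W, chromosome IV, 1213904 to 1214842, plus strand) an aldehyde reductase. GCY1 had a log2 mean CPM of 7.15 (142.2 CPM) and YPR1 one of 6.88 (117.4 CPM).

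GCY1 and YPR1 are duplicates that arose in the whole-genome duplication of the yeast lineage. Both coding sequences are 939 bases long, and the proteins were identical at 65.4% of 312 positions. Their levels lay close together, at 151.4 and 125.0 CPM per kilobase, a ratio of 1.21. Over the 6 pairs of the 4 aldo-keto reductases, identity ran from 33.6% (GRE3 and ARA1) to 65.4% (GCY1 and YPR1) of aligned positions. ARA1 and GRE3, the highest in level, were thus the least alike of these 6 pairs in protein sequence.

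Together the 9 genes summed to 1548 CPM, 0.155% of the total over all features. The 4 aldo-keto reductases made up 66.9% of that sum and the 3 glyoxalase genes 23.4%. Per kilobase the shares were 64.4% and 24.4%. From GLO4 to ARA1 the mean CPM spanned a ratio of 10.8, and 8.99 per kilobase. Of the 9 genes, 7 lay above the median log2 mean CPM of 6.26, and 3 of those (ARA1, GRE3 and GLO1) above the upper quartile of 7.28. Per kilobase, 8 of 9 lay above the median. The median of the 9 genes was 7.06 on the scale of log2 CPM per kilobase, against 5.88 over all genes.

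Genes on either side of the pathway were drawn from a list of 15, of which 13 were found among the features and analysed. TPI1 encodes triose phosphate isomerase, which interconverts the triose phosphates that methylglyoxal comes from. It stood at 3698 CPM per kilobase, 16.9 times GLO1. Of the glutathione genes, GSH1, which makes the first and rate-limiting step, stood at 57.8 CPM per kilobase, GSH2 (glutathione synthetase) at 143.3 and GLR1 (glutathione reductase) at 145.6. GSH1 was thus just below the median of all genes per kilobase and the lowest of the glutathione genes. Without division by its coding length of 2037 bases, its log2 mean CPM of 6.88 was above 66.4% of the features. The genes named for D-lactate dehydrogenase, DLD1, DLD2 and DLD3, stood at 179.1, 82.3 and 444.0 CPM per kilobase. Which of them acts on the D-lactate that the glyoxalases release was not tested. All 3 lay above the median. The aldo-keto reductase genes outside the 9, YDL124W and YJR096W, stood at 498.6 and 87.9 CPM per kilobase, so YDL124W was 1.26 times ARA1. In all, 10 of the 13 lay above the median per kilobase, with a median of 6.93 on the log2 scale.

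**Figure D2:**
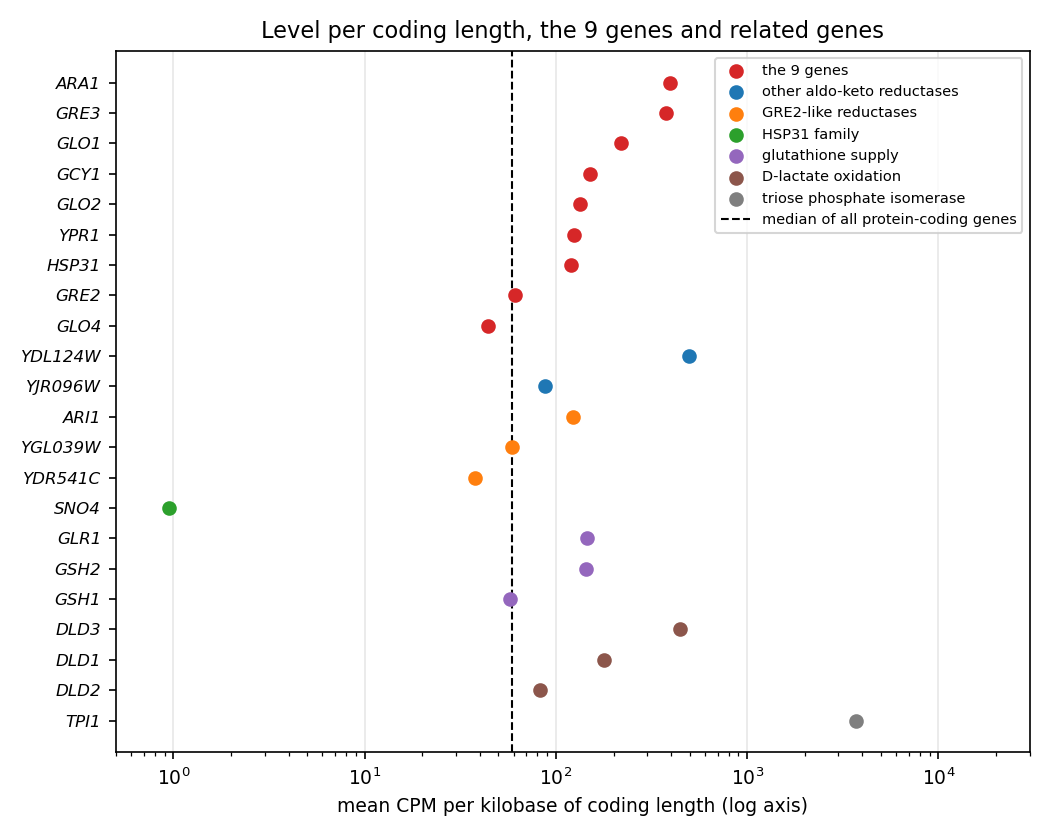
Authors' mean CPM divided by coding length in kilobases (x axis, log scale) for the 9 genes (red) and 13 related genes (other colours by role), 1 point per gene, with the median of all protein-coding genes dashed. ARA1 (394.4) and GRE3 (374.7) are the highest of the 9, GLO4 (43.9) lies left of the median, and TPI1 (3698) and SNO4 (0.953) mark the ends of the plot.

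Codon choice gave a property of the genes that does not come from these libraries. The codon adaptation index scores how closely a coding sequence follows the codons that 138 reference genes prefer, with 1 as the highest score. The reference genes were picked by symbol (RPL, RPS or RPP with a number), the naming of cytosolic ribosomal proteins, and were not checked by function. Of the 9 genes, 8 lay above the median of 0.217 over 5706 genes, and GLO4 lay below it at 0.213. YPR1 was the highest at 0.349, followed by HSP31 at 0.327, GRE2 at 0.325 and GRE3 at 0.310. GLO2 scored 0.230 and GLO1 0.282, so the glyoxalase genes held the lowest 3 scores. GCY1 scored 0.296 and ARA1 0.292. The range of the 9 was narrow beside TPI1, which scored 0.847. Scores above the median were also common among the related genes analysed, of which only GSH1, at 0.210, lay below it.

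Across the 5706 genes, Pearson's r between the index and log2 CPM per kilobase was 0.598 and Spearman's rho was 0.472. Without the reference genes that set the codon weights, r was 0.499 and rho 0.433 over 5568 genes. Genes are not independent replicates, and all levels come from the same libraries. Within the 9, the order by codon index was not the order by level. GRE2 had the widest gap, at the 87.3rd percentile by codon index and the 51.6th by level per kilobase. GLO2 went farthest the other way, at the 60.9th by codon index and the 75.9th by level. ARA1, GRE3 and GLO1 also stood lower by codon index than by level per kilobase.

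**Figure D3:**
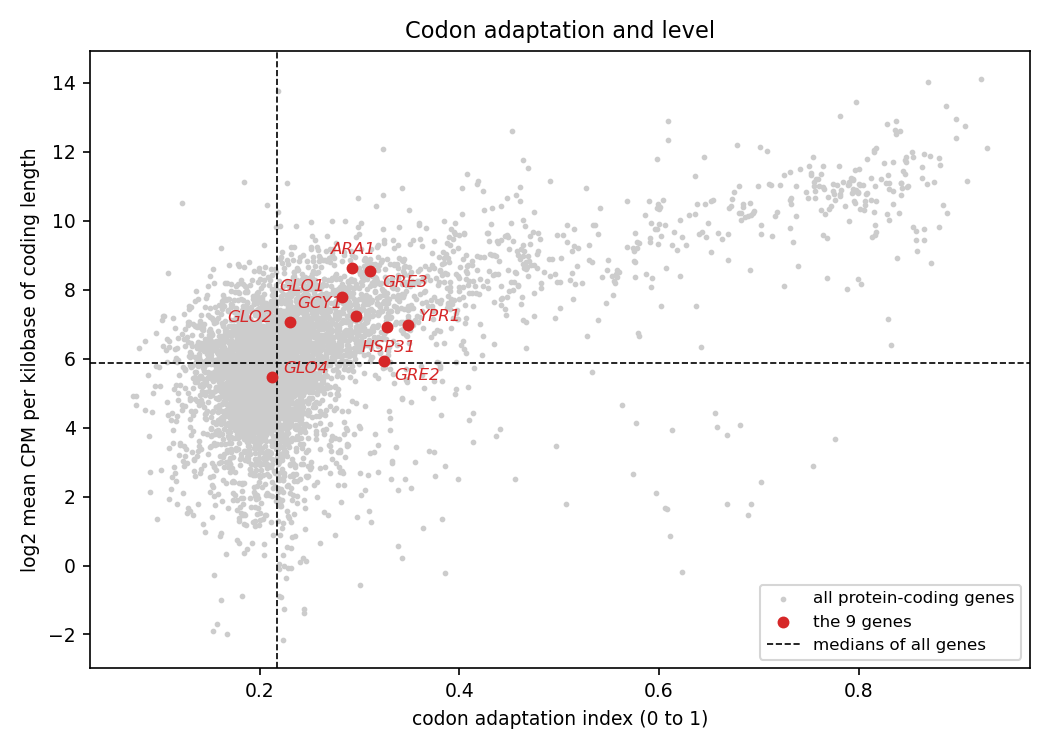
Codon adaptation index (x axis) against the log2 of the authors' mean CPM per kilobase of coding length (y axis) for 5706 protein-coding genes (grey) and the 9 genes (red), with the median of each axis dashed. GLO4 is the only red point left of and below both medians, and GRE2 (0.325) lies on the level median far to the right of the codon median.

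All 9 genes have 1 exon and none overlaps an annotated gene. They lie on chromosomes II, IV, VIII, XIII and XV, and none borders another. Upstream of each start codon at least 281 bases separate it from the next gene. The 250 bases upstream were searched for CCCCT, the core of the stress response element that the activators Msn2 and Msn4 bind, on both strands (AGGGG on the other). It was present for 4 of the 9 genes, HSP31, GLO1, GRE3 and ARA1, against 19.1% of 5706 genes. For the 9 genes the window stops short of the next gene, whereas for other genes it was not cut where a neighbour begins. The shares are thus not from strictly like sequence. ARA1 held 2 copies, and 2.24% of all genes held at least that many. The core was not particular to the 9 genes. Of their relatives in sequence, SNO4, the lowest feature in level, also held 2 copies. YDL124W, YJR096W, ARI1 and YDR541C held 1 each and YGL039W none. The glutathione genes, the DLD genes and TPI1 held none. The windows are shown, each read along its gene's strand with the core in capitals, because these are the genes of the set that carry it. They lie at chrIV:1502366-1502394 (HSP31, minus strand), chrXIII:262898-262926 (GLO1, minus strand), chrVIII:323254-323282 (GRE3, plus strand) and chrII:539874-539919 (ARA1, plus strand).
HSP31: aagcttggcataAGGGGcatgtacatagt
GLO1: actgaataaacaAGGGGctttacgatgga
GRE3: gttactacttctAGGGGgcctatcaagta
ARA1: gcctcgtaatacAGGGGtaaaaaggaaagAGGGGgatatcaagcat
Read along the gene, every copy was in the AGGGG form. The first base of the core lay 222 bases before the start codon in HSP31, 229 in GLO1 and 143 in GRE3. In ARA1 the copies lay 101 and 84 bases before it. Of the 4 genes, ARA1, GRE3 and GLO1 were the highest of the 9 in log2 mean CPM and HSP31 was seventh. A match of this short word is a description of the sequence, and binding was not measured here.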

How the data were processed

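According to the study's methods, the authors aligned reads with kalign to the masked yeast genome and ran the Trinity edgeR pipeline, which gave the deposited log2 mean CPM per feature. Picard, edgeR and the builds R64 and sacCer3 are listed in the submitters' processing notes. The read counter, its use of strand, the filter on low counts, the scaling factors and the prior count are not given in the sources used here, and each can shift low values. The deposited table also holds the authors' own log2 fold changes, p-values and FDR for heat shock against optimal growth, which were not used. The columns used give neither libraries nor depth, so no test, interval on a level or refit was made.

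Features were matched to RefSeq R64, the assembly of the reference genome used here, 5715 by locus tag and 76 by symbol, with 2 unmatched. CPM was divided by coding length, since the gene models carry no UTRs. A percentile is the share of features with a lower value. Proteins were translated from the reference and aligned globally (BLOSUM62, gap opening 11, extension 1, end gaps free), and identity was counted over aligned positions. Codon weights came from 138 genes picked by a ribosomal protein symbol (RPL, RPS or RPP with a number). Words of 50 bases were sought on both strands. The 9 genes and the 15 related genes were chosen with earlier results of these data known, and the text names all members and the related genes analysed. Alternatives changed the background set, the length, the codon reference, the alignment denominator, the window and the word length. The code was tested on simulated data. Software was biopython 1.88, matplotlib 3.10.9, numpy 2.4.6, scipy 1.17.1 and pandas 2.3.3 under Python 3.11.15.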

Additional observations from a re-analysis of the deposited data

How the results depend on the processing

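The count of genes above the median of all features was 7 of 9 with protein-coding genes alone, with features below 1 log2 unit left out and with 1 CPM added, which cannot alter ranks. Per kilobase, 8 of 9 lay above the median, 8 with 200 bases taken off each length and 7 without division by length, where GRE2 fell below it. For the codon index the count was 8 of 9 with the 100 most abundant features as reference. With 150 in place of 250 bases upstream, CCCCT was found for 2 genes, GRE3 and ARA1, against 11.2% of all genes, since the copies of HSP31 and GLO1 lie farther out. Leaving out the division by length moved single percentiles by up to 18.6 points (HSP31), and every other alternative for percentiles moved them by at most 3.19 points. Identity over the shorter protein left GCY1 with YPR1 at 65.4% and GLO2 with GLO4 at 59.1%, pairs aligned over the whole shorter protein. It lowered GRE3 with ARA1 from 33.6% to 30.9%. No 100-base word of the 9 genes occurred elsewhere.

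No paired analysis was possible because each gene has a single mean over all libraries. Leaving out each replicate could not be run either, and whether 1 library sets any level is unknown.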
